A study of Mus musculus with 18 samples.

Results

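*KZFP/rGU*s are KRAB-zinc finger protein (KZFP) genes and related genetic units, each recognised by a stretch of sequence that codes for tandem C2H2 zinc fingers. The units described here were those of the autosomal clusters that lie outside chromosomes 2, 4, 7, 12 and 13. A cluster was a group of at least 8 units less than 500 kb apart, and the rule was applied to the 560 units, with mm9 coordinates, of the study's supplementary expression list. That list holds only part of the study's units, so clusters rebuilt from it can be smaller or fewer than the study's own. The rule gave 60 units of the 560, in 3 of 16 clusters. They were 12 units at chr5:109907060-110558053 (0.651 Mb), 17 at chr10:81126848-81842043 (0.715 Mb) and 31 at chr17:21162580-23313918 (2.15 Mb). The other 500 units of the list served as the comparison.

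KZFPs are transcription factors of vertebrates that bind DNA through their zinc fingers, many of them at transposable elements. Their KRAB domain recruits the corepressor KAP1, also called TRIM28, which in turn brings the histone methyltransferase SETDB1 and with it H3K9me3, a mark of silent chromatin. KZFP genes multiply by duplication in clusters, and KAP1 and H3K9me3 are known to gather over their own zinc finger exons, at the 3' end of the gene. H3K27ac marks active promoters and enhancers.

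Peak lists of 6 ChIP-seq libraries were used, with 1 library per condition. KAP1 and SETDB1 were profiled in Hepa 1.6, a WT hepatoma line derived from a C57L mouse. H3K9me3 and H3K27ac were profiled in mouse embryonic fibroblasts (MEFs) of the C57BL/6 background (C57BL/6J in the study's methods), either WT with loxP sites on both *Kap1* alleles or *Kap1* KO. The Supplemental Procedures describe the *Kap1* KO MEFs of the RNA experiments as a selected, stably growing clone, and whether the ChIP libraries came from it is not given in the sources used here. KAP1 and the histone marks were thus measured in different cells, of different strains, so that a unit with both is a coincidence of position and not of cells. Without replicates there is no test between conditions, the depth is unknown, and intervals below are exact Clopper-Pearson 95% intervals that cover counting error only. The score of a peak is the one its caller wrote, and it ranks peaks within a list. Genes used by fibroblasts carried an H3K27ac peak within 1 kb of their start in 8 of 8 cases in both genotypes, against 0 of 8 hepatocyte genes and 0 of 4 ES cell genes. Of the genes of KAP1-directed silencing, 13 of 13 that could be placed had such a peak in both genotypes, *Trim28* included, so this mark does not check the deletion.

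To show what the units are made of, 1 zinc finger is printed from the unit with the highest H3K9me3 score in each cluster, from the paralogs *Zfp932* and *Gm15446*, and from *Zfp160*, a unit of chromosome 17 without any peak. Each is an 84-base repeat of mm9, from the first cysteine codon to the last base of the linker, read in the coding direction, and the capitals mark the codons of the 2 cysteines and 2 histidines that hold the zinc ion. They lie at chr5:110508126-110508209 (minus strand, unit chr5:110506848), chr10:81208687-81208770 (minus strand, *Gm3055*), chr17:21724244-21724327 (plus strand, *Zfp948*), chr5:110437856-110437939 (plus strand, *Zfp932*), chr5:110371383-110371466 (plus strand, *Gm15446*) and chr17:21162595-21162678 (plus strand, *Zfp160*). The finger is the first complete one of the unit, except for *Zfp932*, where the one most like that of *Gm15446* was taken.
chr5:110506848: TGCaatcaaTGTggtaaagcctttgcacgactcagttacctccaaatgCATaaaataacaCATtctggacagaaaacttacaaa
Gm3055: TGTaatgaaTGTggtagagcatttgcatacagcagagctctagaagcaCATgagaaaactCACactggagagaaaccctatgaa
Zfp948: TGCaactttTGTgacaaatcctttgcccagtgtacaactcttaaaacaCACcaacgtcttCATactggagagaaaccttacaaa
Zfp932: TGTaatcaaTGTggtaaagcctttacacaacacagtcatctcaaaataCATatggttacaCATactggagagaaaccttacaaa
Gm15446: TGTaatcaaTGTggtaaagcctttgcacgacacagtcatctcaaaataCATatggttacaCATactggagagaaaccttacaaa
Zfp160: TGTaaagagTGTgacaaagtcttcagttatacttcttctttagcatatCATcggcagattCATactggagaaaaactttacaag

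The printed fingers of *Zfp932* and *Gm15446*, a pair chosen for its likeness, differed at 2 of 84 bases. The first fingers of the chromosome 5 unit and *Gm3055* shared 55 of 84 bases, those of the chromosome 5 unit and *Zfp948* 51, and those of *Zfp948* and *Zfp160*, which lie in the same cluster, 50. The linker between fingers is the conserved part of such arrays, and its 3 central codons, glycine, glutamate and lysine in the spelling GGAGAGAAA, occurred on 1 strand or the other in 57 of the 60 units (95%) and in 467 of all 560 units (83.4%), which differ in length. The 60 units ranged from 58 to 3268 bp, with a median of 1186 bp and a median of 11 complete fingers. Those of chromosome 10 were the shortest, with a median of 478 bp against 1164 bp on chromosome 5 and 1397 bp on chromosome 17.

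KAP1 in Hepa 1.6 cells covered few of these units, and those it covered had low scores. A KAP1 peak overlapped 11 of the 60 units (18.3%, interval 9.52 to 30.4), against 22.5% of all 560 and 23% of the other 500, so that the share stood near the background. The clusters were unequal, with 5 of 12 units on chromosome 5 (41.7%, 15.2 to 72.3), 4 of 17 on chromosome 10 (23.5%, 6.81 to 49.9) and 2 of 31 on chromosome 17 (6.45%, 0.791 to 21.4). In the other 13 clusters the share ran from 0 to 56%. The highest score over each of the 11 units lay between 81 and 190, with a median of 120, while the median was 313 over the 115 units bound elsewhere.

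On chromosome 5 the units under KAP1 were chr5:110506848 with a score of 190, *Gm17655* with 135, chr5:110311035 with 120, *5430403G16Rik* with 100 and chr5:110211985 with 81. Chromosome 10 had chr10:81342478 under peaks of 131 and 97, *AU041133* with 130, *Zfp938* with 102 and *Zfp781* with 81. On chromosome 17 they were *Zfp942* with 148 and chr17:22423610 with 87. All of the annotated genes among these are zinc finger genes or uncharacterised gene models, and 5 of the 11 units lay in no annotated exon.

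The SETDB1 list held a single one of the units, *Zfp942*, or 1 of 60 (1.67%, 0.0422 to 8.94), against 11.1% of all 560. Every entry of that list is also a KAP1 peak, so that it reads as the KAP1 sites shared with SETDB1. Of the units under KAP1, 1 of 11 was in the SETDB1 list (9.09%), against 61 of 115 elsewhere (53%). The units of these clusters also had lower KAP1 scores, and the part of the score in this difference was not tested.

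H3K9me3 of WT MEFs set the chromosome 17 cluster apart from those of chromosomes 5 and 10. A peak overlapped 22 of the 60 units (36.7%, 24.6 to 50.1), against 22.1% of all 560 units and 20.4% of the other 500. On chromosome 5 it was 8 of 12 (66.7%, 34.9 to 90.1) and on chromosome 10 it was 11 of 17 (64.7%, 38.3 to 85.8), and the interval of chromosome 17, with 3 of 31 (9.68%, 2.04 to 25.8), lay below both. The other 13 clusters ran from 0 to 80%, so none of these 3 stood outside the range of the rest.

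**Figure D1:**
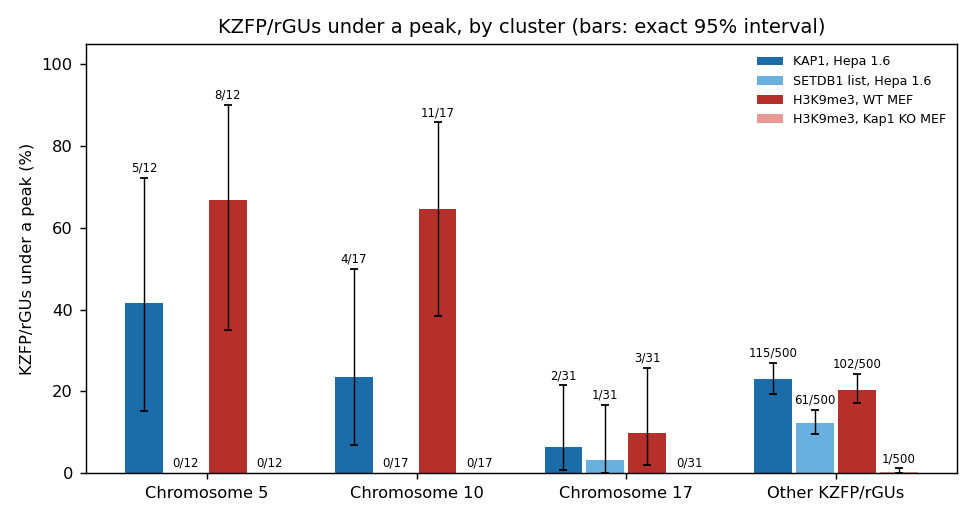
Share of KZFP/rGUs under a peak (y axis, %) in each cluster and among the other 500 units, with the counts above the bars and, for shares above 0, exact 95% intervals that cover counting error only. H3K9me3 of WT MEFs covered 8 of 12, 11 of 17 and 3 of 31 units on chromosomes 5, 10 and 17, and no unit of the 3 clusters was under an H3K9me3 peak in Kap1 KO MEFs.

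In *Kap1* KO MEFs no H3K9me3 peak overlapped any of the 60 units (0 of 60), against 0.179% of all 560. None of the 118 WT H3K9me3 peaks of the 3 clusters overlapped a *Kap1* KO peak. The same share was not counted over all WT peaks of the genome. Whether this lack of overlap is particular to these clusters is therefore not known. The *Kap1* KO list had 1 peak in these clusters, at chr10:81745075-81745380, which had a score of 50.33 and lay 29924 bp from the closest WT peak. The WT list held 14425 peaks in the genome and the *Kap1* KO list 4319. When the WT list was cut to its 4319 highest scores, 13 of the 60 units (21.7%) were still under a WT peak and 0 under a *Kap1* KO peak. The share of all 560 units under the cut list was not counted.

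The highest H3K9me3 scores were on chromosome 10. *Gm3055* and *Zfp781*, whose units of 244 bp have the same sequence, had scores of 1026.78 and 629.93, and *Zfp873*, another zinc finger gene, had 459.51. The unit chr10:81571746, which lies in no annotated gene, had 342.6 and 218.84, and chr10:81476918 had 201.53. The 6 other units with a peak there had highest scores from 88.34 for *Gm4767* to 150.63 for *AU041133*. Neither *Gm3055* nor *Zfp873* was under a KAP1 peak, while *Zfp781* was, with a score of 81. The units of *Gm3055* and *Zfp781* hold no 100-base word that occurs once in mm9. Reads of 100 bp that lie wholly inside them thus cannot tell one from the other.

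On chromosome 5 the scores were lower and more even, from 77.51 over *5430403G16Rik* to 198.59 over chr5:110506848. *Zfp605* had 177.72, *Gm17655* 110.72, chr5:110466735 had 96.98, chr5:110311035 had 82.54 and 65.93, and *4930522L14Rik* had 78.25. *Zfp932* was under peaks of 129.7 and 52.05. Its paralog *Gm15446*, 98.6% identical over 1245 bp, was under none, and the closest peak was 5472 bp away. Both KZFPs are known to act on partly shared families of transposable elements. In these 2 units 75% and 75.8% of the 100-base words occur once in mm9, so most of either unit can be told from the other by reads of 100 bp.

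On chromosome 17 the peaks covered *Zfp948*, with scores of 86.07 and 57.89, *Zfp942* with 71.61 and chr17:22423610 with 56. The other 28 units were under no H3K9me3 peak, among them *Zfp51*, *Zfp52*, *Zfp53* and *Zfp54*. All 3 covered units had scores below the median of 103.85 over the covered units of chromosome 5.

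**Figure D2:**
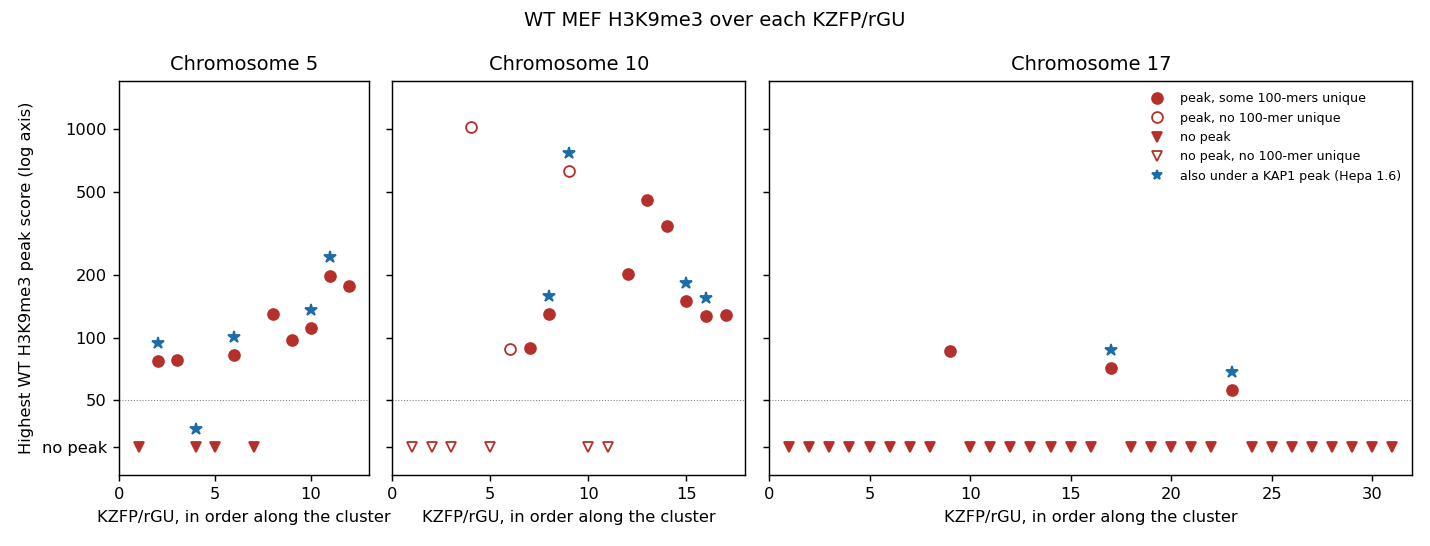
Highest WT MEF H3K9me3 score over each KZFP/rGU (y axis, log scale), with units in their order along the cluster (x axis). Circles are units under a peak and triangles units without one, open symbols are units in which no 100-base word occurs once in mm9, and stars mark units also under a KAP1 peak in Hepa 1.6 cells. The 6 units of chromosome 10 without a peak are all open, and most units of chromosome 17 are without a peak and filled.

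Repeated sequence went along with the missing peaks of chromosome 10. Of the 17 units there, 9 had no 100-base word that occurs once in mm9, and all 6 units without an H3K9me3 peak were among them. The other 3 of the 9, *Gm3055*, *Zfp781* and *Gm4767*, were under a peak. Reads of 100 bp that lie wholly inside such a unit cannot be placed by their sequence, and the part of this in the peaks found or missed there was not tested. The units without a peak were *Gm10778*, chr10:81160936, chr10:81184318, chr10:81255782, chr10:81415131 and chr10:81453153. Among these, chr10:81160936 and chr10:81453153 were the same over 729 bp, and chr10:81255782 and chr10:81415131 over 292 bp.

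Each of these 6 units had a WT H3K9me3 peak close by, at 90 to 505 bp from its edge, with a median of 274.5 bp. The highest of those flanking peaks had a score of 269.95, next to chr10:81184318. Unique words were counted inside the units only, so whether reads in the flanks can be placed was not tested. All 17 units of the chromosome 10 cluster were thus under an H3K9me3 peak or within 1 kb of one. This was not so in the clusters of chromosomes 5 and 17. The share within 1 kb was not counted over all units of the list or in the clusters elsewhere. H3K9me3 peaks were dense in the chromosome 10 cluster, at 122 per Mb, and the part of this in their nearness was not tested. On chromosome 5 the 4 units without a peak were 5472 to 75010 bp from the closest one, and on chromosome 17 the 28 units were 1562 to 528283 bp away, with a median of 46075.5 bp. On those chromosomes every unit long enough to be tested had at least 75% unique 100-base words. The part of repeated sequence in the missing peaks there was not tested. With the count limited to units in which at least 50% of the words occur once, a choice made after the data had been seen, 17 of 48 units (35.4%) were under H3K9me3 and 9 of 48 (18.8%) under KAP1.

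Nearly all of the units under KAP1 were also under H3K9me3. Of the 11 units under KAP1 in Hepa 1.6 cells, 10 were also under H3K9me3 in WT MEFs (90.9%), against 67 of 115 elsewhere (58.3%). The exception here was chr5:110211985. H3K9me3 was also more frequent over all 60 units (36.7%) than over the other 500 (20.4%), and the part of this in the difference was not tested. The 10 units under both were 10 of the 22 under H3K9me3. A further 12 units, 7 of them on chromosome 10, had H3K9me3 without KAP1. No peak of any of the 6 lists overlapped the remaining 37 units, of which 28 were on chromosome 17, 6 on chromosome 10 and 3 on chromosome 5.

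Most of the peaks in the clusters did not lie over the units. The WT H3K9me3 list had 87 peaks in the chromosome 10 cluster, 18 in that of chromosome 5 and 13 in that of chromosome 17. Per Mb this was 122, 27.7 and 6.04 peaks, against 5.43 in the genome. The peaks covered 8.33% of the chromosome 10 cluster, 1.58% of the chromosome 5 cluster and 0.274% of the chromosome 17 cluster, against 0.346% of the genome. Of the 118 peaks, 29 overlapped a unit and 87 were intergenic. Repeated sequence outside the units was not counted, and its part in the number of peaks was not tested.

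KAP1 peaks differed less in number between the clusters, with 11, 15 and 16 on chromosomes 5, 10 and 17, or 16.9, 21 and 7.44 per Mb against 5.03 in the genome. Of these 42 peaks, 12 overlapped a unit. Those within 1 kb of a WT H3K9me3 peak were 8 of 11, 10 of 15 and 4 of 16. The same share was not counted over all KAP1 peaks of the genome. The clusters also differed in their density of H3K9me3 peaks, and the part of this in these counts was not tested. The KAP1 peak with the highest score in each cluster was away from the units. On chromosome 5 it began at 110399898 with a score of 370, 27321 bp from *Gm15446*, on chromosome 10 at 81298975 with 193, 12707 bp from *Gm4767*, and on chromosome 17 at 22501736 with 486, in an intron of *Zfp758*. The SETDB1 list had 0, 4 and 6 peaks in the clusters, and 9 of these 10 were not over a unit.

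**Figure D3:**
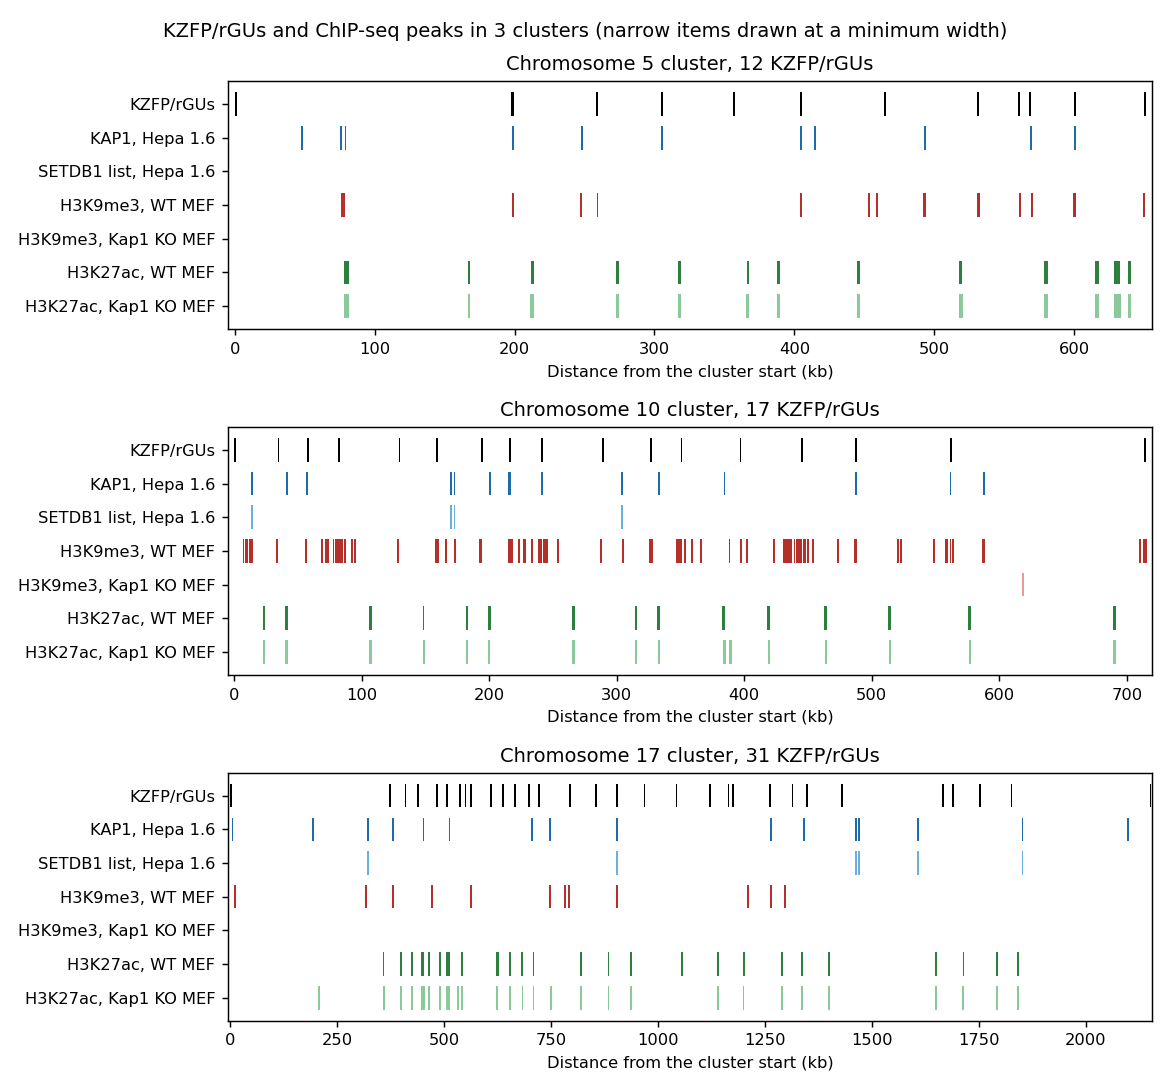
Position of the KZFP/rGUs (black) and of the peaks of the 6 lists in the 3 clusters, in kb from the first base of each cluster (x axis), with narrow items widened to be visible. H3K9me3 of WT MEFs is dense along the chromosome 10 cluster, with 87 peaks, and sparse on chromosome 17, with 13, while the H3K27ac peaks of both genotypes lie at nearly the same places.

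Units were oriented by the reading strand of the fingers or, without a complete finger, by the strand of the linker spelling GGAGAGAAA. Around the middle of the unit, WT H3K9me3 was most frequent 300 bp upstream on chromosome 5, at 7 of 12 units (58.3%). On chromosome 10 it was most frequent 1100 bp upstream, at 14 of 17 units (82.4%), a point outside the units, whose median length there is 478 bp. KAP1 was most frequent at the middle and 100 bp downstream of it on chromosome 5 (4 of 12 units). On chromosome 10 its share was highest, and level, from 200 bp upstream to 200 bp downstream of the middle (4 of 17). The H3K27ac peak closest to any unit was 428 bp away in WT and 430 bp in *Kap1* KO MEFs, in both cases next to chr17:21667685, a fragment without a zinc finger strand, and lay over the starts of *9330136K24Rik* and *Zfp52*.

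**Figure D4:**
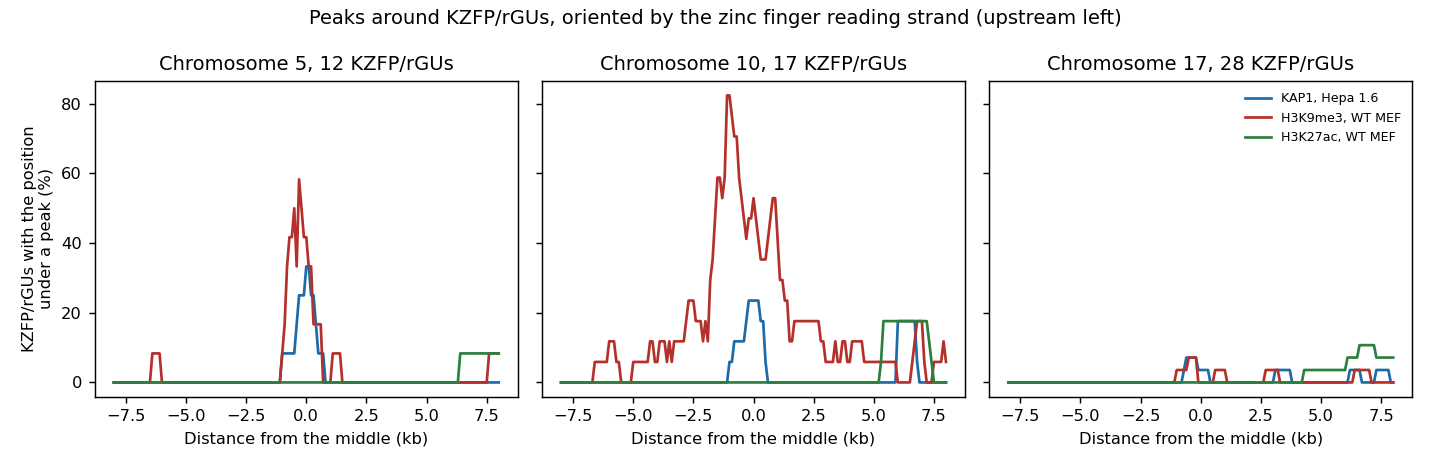
Share of KZFP/rGUs whose position at a given distance from the middle of the unit (x axis, kb, upstream to the left) is under a KAP1, WT H3K9me3 or WT H3K27ac peak (y axis, %), for the 57 units with a zinc finger strand. H3K9me3 reaches 58.3% on chromosome 5, 300 bp upstream of the middle, and 82.4% on chromosome 10, 1100 bp upstream and outside the units, and WT H3K27ac is at 0 at both places.

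Host genes were the annotated genes with an exon that overlaps a unit. There were 37, all protein coding, with 6 on chromosome 5, 8 on chromosome 10 and 23 on chromosome 17, and they held 36 of the 60 units. The fingers read on the strand of the host gene in 36 of 36 units. Of the 24 units without a host gene, 3 lay in an intron and 21 in no gene. H3K9me3 in WT MEFs overlapped 14 of the 36 units with a host gene and 8 of the 24 without, and KAP1 6 and 5.

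H3K9me3 of WT MEFs was found at the 3' ends of the host genes more than at their starts. A peak lay within 1 kb of the 3' end of 12 of the 37 genes (32.4%, 18 to 49.8), against 17.6% of all 387 host genes, and within 1 kb of the start of 4 (10.8%, 3.03 to 25.4), against 6.98%. On chromosome 10 it was 7 of 8 genes at the 3' end, *Gm4924* being the exception, on chromosome 5 it was 3 of 6 and on chromosome 17 it was 2 of 23, *Zfp820* with a score of 128.18 and *Zfp942* with 71.61. Of the 4 genes with a peak at the start, 3 were models under 3 kb, where both ends are close together. The other one was *AU041133*, with scores of 66.03 at its start and 150.63 at its 3' end. Among genes of at least 3 kb, 9 of 30 had H3K9me3 at the 3' end and 1 of 30 at the start.

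KAP1 lay within 1 kb of the 3' end of 6 of the 37 host genes (16.2%, 6.19 to 32), near the 14.5% of all host genes. These were *Gm17655*, *Zfp781*, *AU041133*, *Zfp938*, *Zfp160* and *Zfp942*, and *Zfp160*, with 210, had the highest score. It lay within 1 kb of the start of 1 gene (2.7%), against 11.4% of all host genes, and this was *Gm17655*, a model of 255 bp.

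H3K27ac lay at the starts of the host genes and not at their 3' ends, and it marked the same genes in both genotypes. A peak lay within 1 kb of the start of 26 of the 37 host genes in WT MEFs (70.3%, 53 to 84.1), against 61.5% of all host genes, and at the start of the same 26 genes in *Kap1* KO MEFs, against 63%. No host gene had it in 1 genotype only, whereas the 3' end had it in 0 of 37 genes in either genotype, against 1.03% in WT and 1.29% in *Kap1* KO over all host genes. No unit was under an H3K27ac peak in WT (0 of 60, against 0.357% of all 560) or in *Kap1* KO MEFs (0 of 60, against 0.536%). The marked starts were 5 of 6 on chromosome 5, 19 of 23 on chromosome 17 and 2 of 8 on chromosome 10, where they were *Gm10778* and *Zfp938*. Of the 11 genes without H3K27ac at the start, 7 were models under 3 kb, none of which had it, and 26 of the 30 longer genes did.

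**Figure D5:**
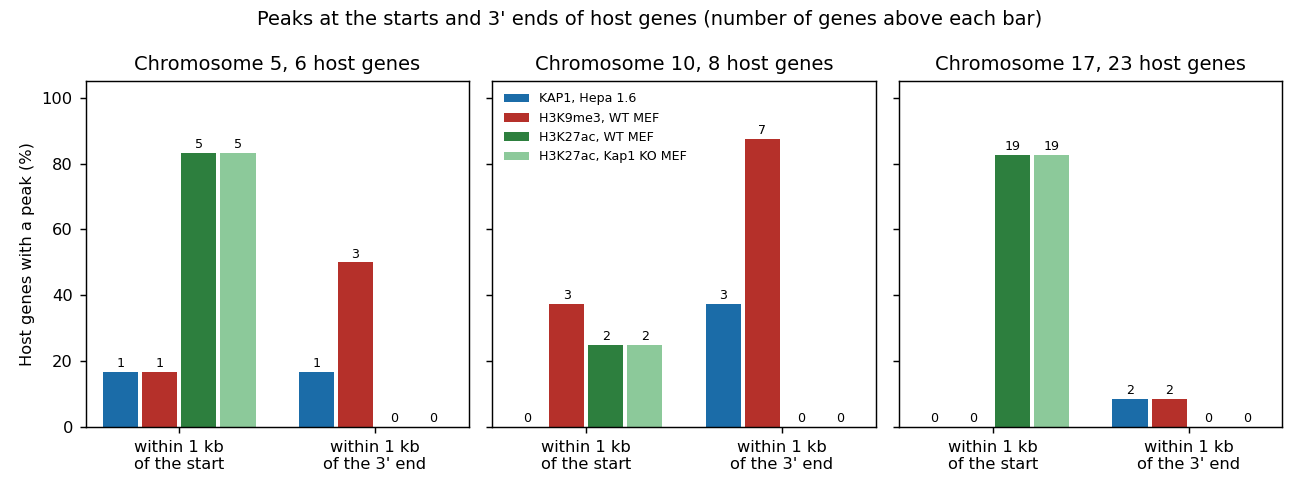
Share of host genes (y axis, %) with a peak within 1 kb of the start or of the 3' end in each cluster, with the number of genes above each bar. H3K27ac marks 5 of 6, 2 of 8 and 19 of 23 starts on chromosomes 5, 10 and 17 in both genotypes and no 3' end, while WT H3K9me3 marks 3, 7 and 2 of the 3' ends.

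The score of a start was the highest of any H3K27ac peak within 1 kb of it. By this measure the scores of the 26 marked starts were lower in *Kap1* KO than in WT MEFs in 16 genes, equal in 8 and higher in 2. Many peaks share a score of 3100, among them 18 of these starts in WT and 8 in *Kap1* KO, and a few exceed it, such as the *5430403G16Rik* start with 3227.04 in *Kap1* KO. The scores also depend on the depth of each library, so that no fold is drawn from them. *Zfp760* stood apart, with 2314.09 in WT and 335.03 in *Kap1* KO, where the next lowest of the 26 starts by this measure was *Zfp229* with 1207.12. The lowest WT score by the same measure was 2001.63, also at *Zfp229*. *Zfp605* counted among the 8 equal starts, at 3100, through a neighbouring peak over *Gtpbp6*. The peak over its own start had lower scores than *Zfp229*, with 783.07 in WT and 860.87 in *Kap1* KO.

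H3K27ac was also found upstream of units that have no host gene. A WT H3K27ac peak lay within 30 kb upstream of 54 of the 57 units with a zinc finger strand and within 30 kb downstream of 25, against 64.4% and 39.9% of all 547 such units of the list. Among the 21 of these units without a host gene, 19 had one upstream and 8 downstream, with a median distance of 15565 bp upstream, close to the 14232 bp of the 36 units with a host gene. In *Kap1* KO MEFs, 53 of the 57 units had a peak upstream and 26 downstream. Neighbouring units can share a peak, and these counts are not independent of each other. Of the 55 WT peaks in the clusters, 26 were within 1 kb of an annotated start.

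H3K27ac peaks found in 1 genotype only were rare in these clusters. The WT list had 14, 15 and 26 peaks there on chromosomes 5, 10 and 17 and the *Kap1* KO list 14, 16 and 27. Those without a counterpart in the other genotype were 4 of the 57 *Kap1* KO peaks (7.02%), against 22.8% in the whole *Kap1* KO list, and 1 of the 55 WT peaks (1.82%), against 22.8% in the whole WT list. The WT peaks had median scores of 2873.82, 3100 and 3100 on chromosomes 5, 10 and 17. The median of the whole lists was not taken, and the part of the score in these shares was not tested. On chromosome 10 the *Kap1* KO only peak was at chr10:81515057-81517260, with a score of 1181.08, 3902 bp from the start of *Zfp873* and 46 bp from a WT H3K9me3 peak. The 3 on chromosome 17 had low scores, with 100.43 at chr17:21368645-21369707, 2855 bp from the start of the vomeronasal receptor gene *Vmn1r234*, 64.2 at chr17:21911086-21912156, and 57.16 at chr17:21694258-21695120 in an intron of *Zfp52*. The WT only peak was at chr17:22217443-22218629, with a score of 313.5.

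Expression in WT MEFs, taken only as a rank from the study's list, gave no clear division of the units by H3K9me3. A peak overlapped 10 of the 30 units of higher rank (33.3%, 17.3 to 52.8) and 12 of the 30 of lower rank (40%, 22.7 to 59.4). The groups were not alike in their clusters, since the 30 units of higher rank were 22 of chromosome 17, 5 of chromosome 10 and 3 of chromosome 5. When each cluster was divided at its own middle rank, leaving out the middle unit on chromosomes 10 and 17, the group of higher rank had as many or more units under H3K9me3, with 4 of 6 against 4 of 6 on chromosome 5, 7 of 8 against 4 of 8 on chromosome 10 and 3 of 15 against 0 of 15 on chromosome 17. On chromosome 10, 4 of the 6 units without a peak did not rank above the median of all 560 units, and all 6 have no unique 100-base word, which also touches the placing of RNA reads. The intervals of the compared shares overlapped in each cluster.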

How the data were processed

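ChIP-seq peak lists of 6 libraries were analysed. The authors mapped reads of 100 bp to mm9 with Bowtie 2 (2.2.1 in the submitters' processing notes) in sensitive-local mode. MACS (1.4) then gave the peaks of each library, with total input as its control. The value used is the peak score as deposited by the authors. A cutoff score of 80 is stated, but the MEF lists reach down to about 50, and all peaks were kept. Read counts were not used, so weaker enrichment below the threshold cannot be seen.

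Peaks overlapped a unit when they shared at least 1 bp, and host gene ends were given 1 kb on either side. Genes came from GENCODE vM1 on mm9. Clusters were rebuilt from the 560 units of the supplementary list, which are not all units of the study. Words of 100 bases were taken from the units only and counted in mm9 on both strands. Zinc fingers were found by translation, and 55 of the units held a complete one. A zinc finger strand was given to 57 units, from the linker spelling where no complete finger was found. Python 3.11.15, pandas 2.3.3, Biopython 1.88 and bedtools 2.31.1 were used, and overlaps were tested on simulated data. With 1 library per condition no p-value was computed.

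The units and gene lists were chosen with earlier results of these data known. Named in the text are units or host genes under a KAP1, SETDB1 or H3K9me3 peak, the highest peak per cluster, *Zfp932* and *Gm15446*. *Zfp51* to *Zfp54*, *Zfp160*, *Zfp229*, *Zfp760* and the units without a peak on chromosome 10 were added after their values were seen. Inputs, RNA-seq, ES cell and liver libraries were not analysed here.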

Additional observations from a re-analysis of the deposited data

How the results depend on the processing

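Of 75 repeated values, of which 4 were chosen after the data had been seen, 64 stayed within the interval of the reported value, or within 1.5 times for counts. With the 50% of peaks of highest score in each list, KAP1 covered 1.67% of the units and 2.7% of the host gene 3' ends, the SETDB1 list covered 0% of the units, and 2 *Kap1* KO only H3K27ac peaks remained. The KAP1 scores over these units are low, so this setting removes them by construction. Limiting the MEF lists to scores from 80 upwards also left 2 *Kap1* KO only peaks, and clusters of at least 6 units gave 9 over more clusters. With equal numbers of peaks from both genotypes, WT H3K9me3 covered 21.7% of the units. Among host genes of at least 3 kb, 86.7% of starts had WT H3K27ac. The share under H3K9me3 in the upper minus the lower expression group was -6.67 percentage points. It turned to 7.45 with groups set by the median of all 560 units and to 10.1 with clusters of at least 6 units, and was -26.7 with peaks within 1 kb counted. No direction is drawn from it. No paired analysis was possible because the replicate numbers in the labels belong to ES cell and liver libraries that were not analysed here.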
